A study of Rattus norvegicus with 63 samples.

Results

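The livers of rats given cyproterone acetate (CPA) were compared with the livers of rats given phenobarbital (PB), each against its own vehicle controls, and the 2 changes were then set against each other. The comparison rests on 12 of the 63 arrays in the series, chosen by the compound and control set in the labels. They are 3 arrays of CPA, 3 of its corn oil controls, 3 of PB and 3 of its methylcellulose controls. The series as a whole holds 15 compounds and 6 control sets, and the study asked whether short dosing separates classes of liver carcinogens. All animals were male Wistar Hanover rats, 8 to 10 weeks old, dosed by gavage. The CPA rats received 100 mg/kg each day over 14 days, with corn oil as the vehicle. PB was also given for 14 days, at a dose that the methods state and its label leaves blank. Its controls are labelled methylcellulose, the name the methods also use for control animals. For PB itself the methods name carboxymethyl cellulose as the vehicle. The groups had 5 rats each. From each treatment group, 3 rats with some liver change at histopathology were picked for the arrays. The animals are thus separate, but the treated ones were chosen on a response and are not a random draw. The methods do not say how the control rats were picked. No control animal served both compounds, so compound, dose, vehicle and control set differ together and cannot be told apart in a difference of the changes.

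CAR and PXR are nuclear receptors of the hepatocyte that sense foreign compounds and switch on enzymes and transporters for their clearance. PB is the classical indirect activator of CAR in rodents, with P450s of family 2B as the textbook targets. CPA, a steroidal antiandrogen and progestin, activates rat PXR, with P450s of family 3A as the textbook targets, and the receptors share many target genes.

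Each array gave a log2 expression value for 15866 probe sets of an Affymetrix RAE230A array. The medians of the 12 arrays lay between 7.45 and 7.51. A change is a mean log2 difference between treated animals and controls, given as ± SE from a limma fit to all 63 arrays (n = 3 against 3), so that 1 unit is a doubling. A probe set was called where its limma p stayed under 0.05 after Benjamini-Hochberg correction across the whole array. An exact permutation test of 3 animals against 3 has 0.1 as its smallest two-sided p, and the calls therefore lean on the spread that limma estimates from all arrays. Of the 14 hepatocyte markers measured, the mean level was 13.31 to 13.41 in CPA livers and 13.38 to 13.49 in corn oil livers, and 13.32 to 13.38 in PB livers and 13.33 to 13.44 in methylcellulose livers (log2). Methylcellulose control 1 stood apart, with a mean correlation of 0.9886 with its own group and an array weight of 0.306. The corn oil and methylcellulose controls themselves differed at 351 probe sets (2.21%).

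More probe sets were called with CPA than with PB. CPA livers differed from corn oil livers at 1245 probe sets (7.85%), 494 higher (3.11%) and 751 lower (4.73%). PB livers differed from methylcellulose livers at 214 (1.35%), 153 higher (0.964%) and 61 lower (0.384%). Called in both were 82 probe sets, 38.3% of the PB calls and 6.59% of the CPA calls, and 77 of them moved the same way (0.485%). Of the 82, 62 were higher under both compounds (0.391% of all), 15 were lower under both (0.0945%) and 5 moved in opposite directions (0.0315%). Across all 15866 probe sets the CPA and PB changes had a Pearson r of 0.37 and a Spearman rho of 0.19, a description across genes, which are not replicates. Without 1 array the CPA count was 599 (CPA animal 1) or 673 (corn oil control 1) where it moved most. The PB count was 88, 121 and 121 without PB animals 1, 2 and 3, and 110, 540 and 368 without methylcellulose controls 1, 2 and 3. Of the 540, 231 were higher and 309 lower. The count called in both was 51 without PB animal 1, 54 without PB animal 2 and 50 without methylcellulose control 1.

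The difference of changes, CPA change minus PB change, passed the test at 198 probe sets (1.25%), 35 higher (0.221%) and 163 lower (1.03%). Of the 198, 139 were called in the CPA change only, 20 in the PB change only, 11 in both and 28 in neither. At 51 of them the control sets also differed from each other, and at 113 the CPA arrays differed the same way from the PB arrays with no controls in the contrast. With the controls pooled by vehicle, 230 passed, and only 80 of the 198 were among them. The share that was higher was then 48.7% in place of 17.7%. Leaving out 1 array moved the 198 to 104 without CPA animal 1, 121 without corn oil control 1, 93 without PB animal 3, 354 without methylcellulose control 2 and 333 without methylcellulose control 3. It was 133 without methylcellulose control 1. Of the 43 named genes called in the difference, 20 stayed called whichever of the 12 arrays was left out.

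**Figure D1:**
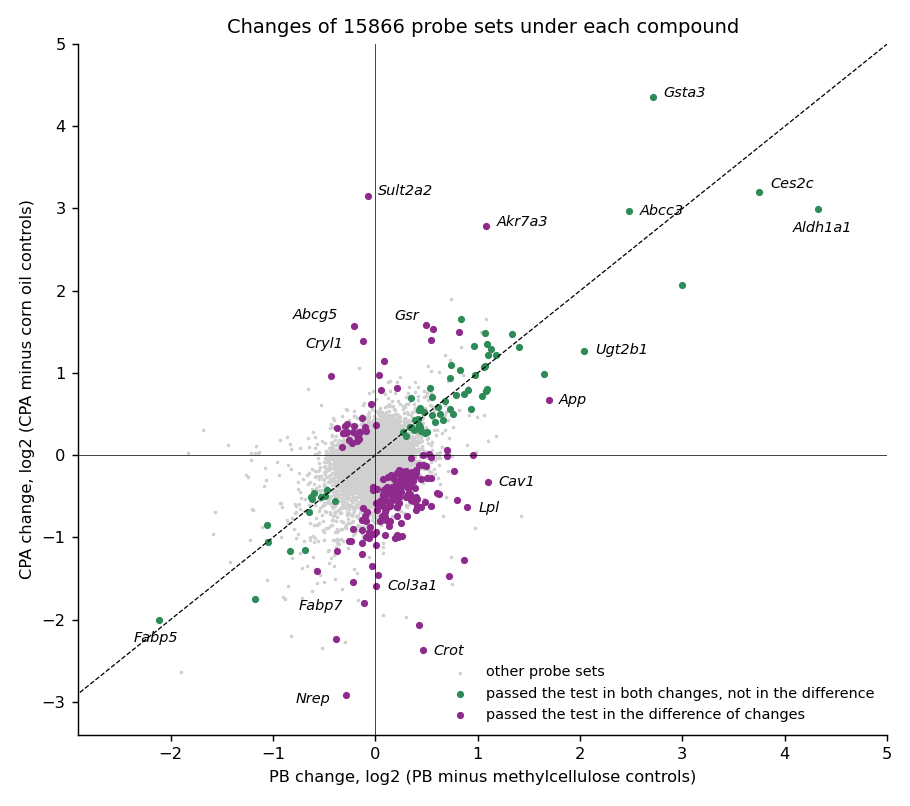
Log2 change of each of 15866 probe sets under PB (horizontal axis, PB minus methylcellulose controls) and under CPA (vertical axis, CPA minus corn oil controls). Green points passed the test in both changes but not in the difference, purple points passed it in the difference, and the dashed line marks equal changes. Gsta3, Ces2c, Aldh1a1 and Abcc3 lie far up along the line, Sult2a2 lies on the CPA axis at 3.16 against -0.08, and most purple points lie below the line.

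The P450 genes that define the 2 receptor types had no called difference between the compounds. Cyp3a23-3a1 encodes the steroid-hydroxylating P450 3A that pregnane-type inducers are known to raise in rat liver. Its values were 13.49, 13.28 and 13.50 in CPA livers against 12.38, 12.27 and 12.54 in corn oil livers, and 12.81, 13.12 and 12.99 in PB livers against 12.12, 12.11 and 12.23 in methylcellulose livers. Neither pair of groups overlapped. It rose by 1.03 ± 0.13 with CPA (adjusted p = 3.34e-07) and by 0.82 ± 0.13 with PB (adjusted p = 0.000135). The difference of these changes was 0.21 ± 0.19, with a 95% interval of -0.17 to 0.59 (adjusted p = 0.673).

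Cyp3a2, the male-predominant rat P450 3A, was at 13.80, 13.50 and 13.76 in CPA livers against 13.85, 13.27 and 13.63 in corn oil livers. It was at 13.57, 13.96 and 13.67 in PB livers against 13.49, 13.56 and 13.34 in methylcellulose livers. Its groups overlapped under CPA and only just separated under PB, and neither change passed (0.10 ± 0.15 and 0.27 ± 0.15). Both 3A genes carry a direct repeat of AGTTCA with 3 bases between (DR3, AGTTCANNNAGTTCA, searched on both strands), the textbook element that PXR binds in the rat 3A genes. In RefSeq's GRCr8 promoters it occurs in the 250 bases before the start of 2 of 33469 genes (0.00598%), and those are these 2. The 250 bases are shown 5′ to 3′ along each gene, with the DR3 in capitals, because Cyp3a23-3a1 rose under both compounds and Cyp3a2 had no called change.
Cyp3a23-3a1 (chr12:14398804-14399053, minus strand): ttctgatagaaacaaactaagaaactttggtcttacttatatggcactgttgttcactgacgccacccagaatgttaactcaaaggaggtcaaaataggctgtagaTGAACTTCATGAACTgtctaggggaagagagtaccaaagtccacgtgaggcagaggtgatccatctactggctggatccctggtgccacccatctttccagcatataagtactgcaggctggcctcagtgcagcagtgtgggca
Cyp3a2 (chr12:14343858-14344107, minus strand): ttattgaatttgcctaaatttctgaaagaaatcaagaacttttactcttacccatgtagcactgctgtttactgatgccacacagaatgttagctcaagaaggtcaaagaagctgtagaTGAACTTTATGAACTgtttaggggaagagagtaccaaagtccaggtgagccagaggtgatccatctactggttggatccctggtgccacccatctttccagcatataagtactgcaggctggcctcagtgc
The repeat ran from 144 to 130 bases before the start of Cyp3a23-3a1 and from 131 to 117 bases before that of Cyp3a2. The capitals are the repeat read along each gene, where AGTTCA stands on the opposite strand, and were TGAACTTCATGAACT in Cyp3a23-3a1 and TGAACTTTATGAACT in Cyp3a2. A match in letters is a description, not a bound site. The repeat with 4 bases between (DR4, AGTTCANNNNAGTTCA) was in 4 of the promoters (0.012%), none of a gene named here, and the everted repeat TGAACTNNNNNNAGTTCA (ER6) was in 0. The search covered only exact copies of AGTTCA in these 250 bases, so it cannot speak to repeats farther away or with other letters.

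Of the 4 family 3A genes measured, 3 were called higher with CPA and 1 with PB, against 3.11% and 0.964% of all probe sets. Their median change was 0.89 with CPA and 0.47 with PB, beside 0.03 and 0.01 over all probe sets. Cyp3a9 had a CPA change of 1.22 ± 0.38 (adjusted p = 0.0383) and a PB change of 0.68 ± 0.38. Cyp3a18, another male-predominant member, had a CPA change of 0.74 ± 0.23 (adjusted p = 0.0359) and a PB change of 0.09 ± 0.23. Cyp3a9 and Cyp3a18 each lost the CPA call without CPA animal 1 (1.05 and 0.64) or without any 1 of the corn oil controls (1.07, 1.34 and 1.26 for Cyp3a9, 0.79, 0.63 and 0.81 for Cyp3a18), Cyp3a9 also without CPA animal 2 (1.26) or with controls pooled by vehicle (0.97) and Cyp3a18 without CPA animal 3 (0.76).

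The phenobarbital-type P450s 2B1 and 2B2 share 1 probe set, which cannot tell them apart and was chosen after its values were seen. It read 13.25, 13.05 and 12.92 in CPA livers against 10.49, 10.99 and 11.55 in corn oil livers, and 13.81, 14.18 and 14.09 in PB livers against 11.59, 10.74 and 10.77 in methylcellulose livers. Every treated animal lay above every control of its set. The change was 2.07 ± 0.35 with CPA (4.19-fold, adjusted p = 5.83e-05) and 2.99 ± 0.35 with PB (7.97-fold, adjusted p = 7.92e-08), and the difference was -0.93 ± 0.49 (95% interval -1.92 to 0.06, adjusted p = 0.392). The 3 other family 2B genes measured, Cyp2b3, Cyp2b12 and Cyp2b21, had changes between -0.16 and 0.26 under either compound, and 0 of the 3 were called in limma's test. At an unadjusted p under 0.05, 0 passed with CPA and 1 with PB, Cyp2b21 at 0.26 ± 0.12.

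The receptors themselves were not called. Nr1i2, which encodes PXR, changed by 0.20 ± 0.12 with CPA and -0.17 ± 0.12 with PB. Nr1i3, which encodes CAR, changed by -0.17 ± 0.31 and -0.19 ± 0.31. Por, the reductase that passes electrons to P450s, was at 10.99, 11.08 and 10.45 in CPA livers against 9.60, 9.73 and 9.99 in corn oil livers, and at 10.82, 11.03 and 10.79 in PB livers against 9.89, 9.85 and 9.72 in methylcellulose livers. It rose by 1.07 ± 0.23 with CPA and 1.06 ± 0.23 with PB, 2.10- and 2.08-fold, though the PB call ended without PB animal 2 (0.99, adjusted p = 0.0562). Cyb5a, cytochrome b5, rose by 0.35 ± 0.07 and 0.34 ± 0.07, and its PB call likewise ended without PB animal 2 (0.29). Of 13 genes of electron supply and heme synthesis, 3 were called higher with PB (0.964% of all probe sets), which was 0 without PB animal 2. With CPA 2 were called higher and 1 lower (3.11% and 4.73% of all), and 1 was lower in the difference (1.03% of all). Alas1, the first enzyme of heme synthesis, changed by 0.47 ± 0.25 with CPA (adjusted p = 0.264) and 0.99 ± 0.25 with PB (adjusted p = 0.03). The PB call of Alas1 ended without PB animal 1 or 2 (0.96 and 0.91) and without methylcellulose control 1 or 2 (0.86 and 0.95), and its difference was -0.52 ± 0.36.

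Ces2c, Aldh1a1, Gsta3 and Abcc3 rose strongly under both compounds. Ces2c, a carboxylesterase, was at 11.86, 11.93 and 11.99 in CPA livers against 9.06, 8.66 and 8.47 in corn oil livers, and at 12.16, 12.26 and 11.75 in PB livers against 8.39, 8.16 and 8.36 in methylcellulose livers. The treated animals lay more than 2 units above all controls. It rose by 3.20 ± 0.20 with CPA (9.18-fold, adjusted p = 8.59e-17) and 3.75 ± 0.20 with PB (13.5-fold, adjusted p = 1.3e-19), a difference of -0.55 ± 0.28 (95% interval -1.11 to 0.00, adjusted p = 0.358).

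Aldh1a1, which oxidizes retinal and other aldehydes, was at 12.48, 12.18 and 12.81 in CPA livers against 9.98, 9.64 and 8.86 in corn oil livers, and at 12.51, 12.44 and 12.20 in PB livers against 7.80, 7.52 and 8.85 in methylcellulose livers. The treated levels overlapped each other while the corn oil controls lay above the methylcellulose controls, by 1.43 (adjusted p = 0.0827). Its rise was 3.00 ± 0.46 with CPA and 4.32 ± 0.46 with PB, and the difference was -1.32 ± 0.66 (adjusted p = 0.353).

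Gsta3, a glutathione S-transferase of the alpha class, was at 10.29, 9.94 and 10.73 in CPA livers against 5.95, 6.09 and 5.86 in corn oil livers. It was at 9.13, 8.64 and 8.89 in PB livers against 5.75, 5.98 and 6.79 in methylcellulose livers. All CPA animals lay above all PB animals, and the controls of the 2 sets overlapped. The rise of 4.35 ± 0.46 with CPA (20.4-fold) exceeded that of 2.71 ± 0.46 with PB (6.56-fold) by 1.64 ± 0.65 (95% interval 0.33 to 2.94), which did not pass over all probe sets (adjusted p = 0.216).

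Abcc3, an exporter of conjugates from the hepatocyte into blood, was at 9.56, 9.41 and 9.96 in CPA livers against 6.91, 6.57 and 6.55 in corn oil livers, and at 9.27, 8.76 and 9.29 in PB livers against 6.56, 6.74 and 6.58 in methylcellulose livers. It rose by 2.97 ± 0.21 and 2.48 ± 0.21, with a difference of 0.49 ± 0.30 (95% interval -0.12 to 1.10). Ugt2b1, a UDP-glucuronosyltransferase, rose by 1.27 ± 0.30 with CPA and 2.04 ± 0.30 with PB, a difference of -0.77 ± 0.42. Ephx1, the microsomal epoxide hydrolase, rose by 1.22 ± 0.14 and 1.18 ± 0.14, a difference of 0.04 ± 0.20 with a 95% interval of -0.35 to 0.44. For these 6 genes and Cyp3a23-3a1 both calls stayed with each of the 12 arrays left out in turn.

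**Figure D2:**
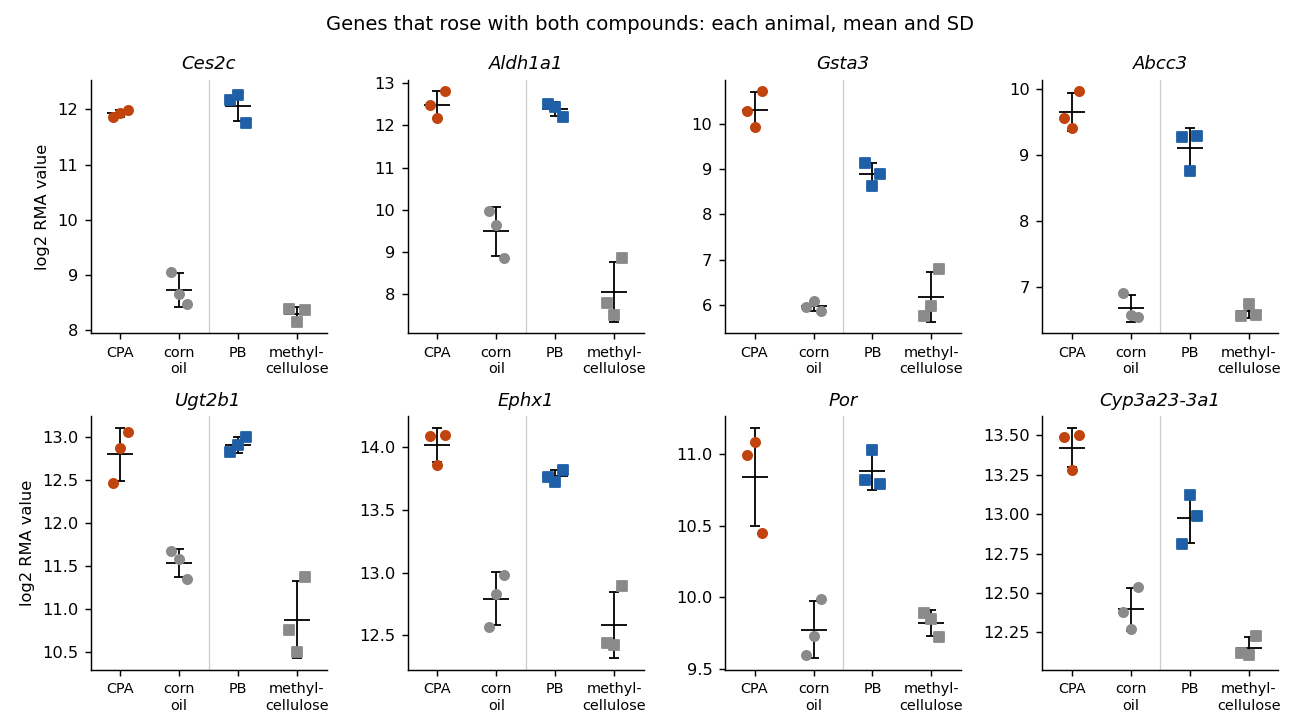
Log2 RMA value of 8 genes in each of 12 livers, in the order CPA, corn oil controls, PB and methylcellulose controls, with the mean and SD of each group of 3. In every panel the treated animals lie above all controls of their own set, and for Aldh1a1 the corn oil controls lie above the methylcellulose controls. That separation was a condition for picking Ces2c, Aldh1a1, Gsta3 and Abcc3 in both changes and Ugt2b1 in the PB change.

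The called genes of cholesterol synthesis and uptake were higher under both compounds. Of 21 measured, 12 were called higher with CPA (3.11% of all probe sets), 8 were called higher with PB (0.964% of all) and 0 were called lower with either in limma's test, with 1 lower with CPA and 0 with PB at an unadjusted p under 0.05. The median change was 0.40 with CPA and 0.43 with PB, beside 0.03 and 0.01 over all probe sets, and 0 of the 21 passed in the difference (median -0.12), also at an unadjusted p under 0.05. Idi1, which isomerizes the isoprenoid precursor, was at 10.72, 10.54 and 11.19 in CPA livers against 9.64, 9.27 and 9.61 in corn oil livers, and at 10.34, 10.79 and 10.20 in PB livers against 9.51, 9.36 and 8.24 in methylcellulose livers. It rose by 1.31 ± 0.32 and 1.41 ± 0.32. Sqle, squalene epoxidase, rose by 1.29 ± 0.26 and 1.13 ± 0.26, and Msmo1, a sterol methyl oxidase, by 1.08 ± 0.25 and 1.07 ± 0.25. The PB calls of all 3 ended without PB animal 2 (1.23, 1.08 and 0.93 in that order) or methylcellulose control 3 (1.01, 0.92 and 0.91), and that of Msmo1 also without PB animal 1 (1.12). The count under CPA was 6 without CPA animal 3 or without corn oil control 2. Under PB it was 1 without PB animal 2, 5 without PB animal 1 and 4 without methylcellulose control 3.

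Fewer probe sets were lower than higher under both compounds, 15 against 62. With controls pooled by vehicle, 78 were lower and 85 higher. Without methylcellulose control 2, 40 were lower and 65 higher. Fabp5, a fatty acid binding protein, was at 8.06, 8.75 and 8.06 in CPA livers against 9.92, 10.32 and 10.66 in corn oil livers, and at 9.13, 8.47 and 9.60 in PB livers against 11.28, 10.98 and 11.29 in methylcellulose livers. Neither pair overlapped. It fell by 2.01 ± 0.39 with CPA and fell by 2.11 ± 0.39 with PB. Il33, an alarmin cytokine, fell by 1.75 ± 0.25 and 1.18 ± 0.25, and Rgn, the calcium-binding protein regucalcin, by 1.16 ± 0.14 and 0.69 ± 0.14. The calls of these 3 genes stayed with each array left out, and none of the 3 passed in the difference, where the 95% intervals were -0.99 to 1.20 for Fabp5, -1.30 to 0.15 for Il33 and -0.88 to -0.06 for Rgn.

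Sult2a2, a hydroxysteroid sulfotransferase, led the genes with the higher CPA change. It was at 9.81, 8.95 and 5.23 in CPA livers against 4.89, 4.86 and 4.77 in corn oil livers, and at 4.80, 4.81 and 4.85 in PB livers against 4.92, 4.92 and 4.85 in methylcellulose livers. Of the CPA animals 2 were far above the rest and 1 was close to its controls. The CPA change was 3.16 ± 0.45 and the difference 3.23 ± 0.64 (adjusted p = 0.00381), and the difference ranged from 2.33 to 4.61 as single arrays were left out. The SD was 2.43 in CPA livers, 0.06 in corn oil, 0.02 in PB and 0.04 in methylcellulose livers. The SE, taken from all arrays, does not reflect the spread of the CPA animals. The difference was not called in the fit to the 12 arrays, with or without a replicate block.

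Abcg5, a subunit of the transporter that exports plant sterols and cholesterol, was at 9.92, 8.66 and 9.44 in CPA livers against 8.01, 7.55 and 7.76 in corn oil livers, and at 7.21, 7.27 and 6.97 in PB livers against 7.16, 7.84 and 7.07 in methylcellulose livers. All CPA animals lay above all other animals. Its CPA change was 1.57 ± 0.25, its PB change -0.21 ± 0.25 and the difference 1.78 ± 0.35 (adjusted p = 0.00381). Cryl1, a gulonate dehydrogenase, was at 9.87, 9.80 and 9.59 in CPA livers against 8.19, 8.48 and 8.42 in corn oil livers, and at 7.82, 8.00 and 8.36 in PB livers against 8.26, 7.95 and 8.33 in methylcellulose livers. Its difference was 1.51 ± 0.27 (adjusted p = 0.00118) and was called under all 21 alternatives tried.

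Akr7a3 and Gsr rose with both compounds and more with CPA. Akr7a3, an aflatoxin aldehyde reductase, was at 13.60, 12.95 and 13.07 in CPA livers against 9.81, 10.65 and 10.80 in corn oil livers, and at 11.63, 11.35 and 11.51 in PB livers against 10.66, 9.92 and 10.66 in methylcellulose livers. It rose by 2.79 ± 0.26 with CPA and 1.08 ± 0.26 with PB, a difference of 1.70 ± 0.37 (adjusted p = 0.00943). Its difference lost the call without CPA animal 1 (1.51) or corn oil control 1 (1.40), and its PB call ended without PB animal 1 (1.01) or 3 (1.08) or methylcellulose control 2 (0.84) and with controls pooled by vehicle (0.66). Gsr, glutathione reductase, was at 10.21, 9.93 and 10.08 in CPA livers against 8.42, 8.60 and 8.59 in corn oil livers, and at 9.28, 9.40 and 9.45 in PB livers against 8.92, 8.68 and 8.82 in methylcellulose livers. Its rise of 1.53 ± 0.13 with CPA exceeded that of 0.57 ± 0.13 with PB by 0.97 ± 0.19 (adjusted p = 0.0032), and the difference stayed called with any 1 array left out, while the PB call ended without PB animal 2 (0.56) or 3 (0.53). Cyp26a1, which degrades retinoic acid, had a difference of 1.08 ± 0.25 (CPA change 1.58, called, and PB change 0.50, adjusted p = 0.176), lost without CPA animal 1 (0.89) or PB animal 3 (0.91).

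Inf2, a formin that shapes actin filaments, was at 9.02, 9.38 and 9.29 in CPA livers against 8.18, 8.26 and 8.32 in corn oil livers, and at 8.21, 8.56 and 8.09 in PB livers against 8.04, 8.19 and 8.51 in methylcellulose livers. The CPA animals lay above all 9 others. Its difference of 0.94 ± 0.17 stayed called with any 1 array left out.

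Of all probe sets, 3.11% were higher and 4.73% lower with CPA, 0.964% were higher with PB, and 0.221% were higher and 1.03% lower in the difference. By list, glutathione S-transferases and glutathione supply had 10 of 23 members called higher and 1 called lower with CPA, 5 called higher and 0 lower with PB, and 2 higher in the difference, Gsr and Mgst2. At an unadjusted p under 0.05, 7 of the 23 were higher and 4 lower with PB, beside 12 higher and 1 lower with CPA. The NRF2 redox genes, 22 measured and partly the same genes, had 7 higher with CPA, 5 higher with PB and 2 higher in the difference, Gsr and Akr7a3. The PB count of the NRF2 genes was 3 without PB animal 1 and 2 without PB animal 3. Median changes were 0.25 and 0.20 for the transferases and 0.36 and 0.22 for the NRF2 genes. Of 24 UDP-glucuronosyltransferases and sulfotransferases, 7 were higher and 4 lower with CPA (the 4 were 1 without CPA animal 1 or corn oil control 1 and 2 without CPA animal 2 or corn oil control 2), 2 were higher with PB, and Sult2a2 and Ugt2a1 were higher in the difference. Of 22 transporters, 6 were higher and 4 lower with CPA and 3 were higher with PB, while Abcg5 and Slco1a1 were higher and Abcc6 lower in the difference. Except for Gsr, Abcg5 and Sult2a2, the differences named from these lists lost their calls without single arrays. That of Ugt2a1 was lost without PB animal 1 or 3 (0.75 each). That of Mgst2 was lost without CPA animal 1 (0.60) or 3 (0.57), corn oil control 2 (0.61) or 3 (0.53), PB animal 1 (0.57) or 2 (0.58), or methylcellulose control 1 (0.46). That of Abcc6 was lost without CPA animal 3 (-0.64), corn oil control 2 (-0.58), PB animal 3 (-0.68) or methylcellulose control 1 (-0.47), and also with controls pooled by vehicle (-0.09) and with no controls (-0.26). Slco1a1, an organic anion uptake transporter, lost it without CPA animal 1 (0.65) or 3 (0.53), corn oil control 2 (0.56), PB animal 1 (0.57) or 2 (0.63), or methylcellulose control 1 (0.61) or 2 (0.58).

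Crot led the genes with the lower CPA change. It encodes the carnitine octanoyltransferase of the peroxisome and was at 8.57, 7.55 and 8.52 in CPA livers against 10.63, 10.46 and 10.66 in corn oil livers. In PB livers it was at 10.93, 11.09 and 10.74, against 10.17, 10.70 and 10.50 in methylcellulose livers. All CPA animals lay below all 9 other animals. The CPA change was -2.37 ± 0.26, the PB change 0.46 ± 0.26, and the difference -2.83 ± 0.37 (adjusted p = 8.22e-06), with a lowest and highest value of -3.01 and -2.50 as arrays were left out.

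Nrep, a small protein known from regenerating neurons, was at 8.11, 8.44 and 8.05 in CPA livers against 10.70, 11.34 and 11.31 in corn oil livers, and at 11.46, 10.65 and 11.84 in PB livers against 11.60, 11.59 and 11.62 in methylcellulose livers. Its difference was -2.63 ± 0.55 (adjusted p = 0.00576). Lrp1, the endocytic receptor for lipoprotein remnants and protease complexes, was at 10.19, 10.24 and 10.11 in CPA livers against 11.16, 11.21 and 11.12 in corn oil livers, and at 10.94, 10.94 and 11.13 in PB livers against 10.35, 10.86 and 11.03 in methylcellulose livers. Its difference of -1.24 ± 0.17 (adjusted p = 1.91e-05) held a CPA change of -0.98 and a PB change of 0.26. Elovl5, a fatty acid elongase, fell by 0.99 ± 0.13 with CPA, its PB change was -0.09 ± 0.13, and its difference was -0.90 ± 0.18 (adjusted p = 0.00381). Gulo, the last enzyme of ascorbate synthesis, had values of -0.94, -0.06 and -0.88 for the same 3 quantities. The differences of these 4 genes stayed called with any 1 array left out.

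PB contributed the larger side at some genes. App, the amyloid precursor protein, was at 11.14, 11.39 and 11.71 in CPA livers against 10.69, 10.84 and 10.68 in corn oil livers, and at 12.03, 11.82 and 11.95 in PB livers against 10.18, 10.15 and 10.40 in methylcellulose livers. It rose by 0.67 ± 0.12 with CPA and 1.69 ± 0.12 with PB, and the difference was -1.02 ± 0.17 (adjusted p = 0.000726). The corn oil controls of App lay above the methylcellulose controls by 0.49 (adjusted p = 0.0202). Lpl, lipoprotein lipase, was at 6.93, 7.06 and 6.78 in CPA livers against 7.66, 7.63 and 7.37 in corn oil livers, and at 8.94, 8.20 and 8.31 in PB livers against 7.29, 7.69 and 7.78 in methylcellulose livers. Its difference was -1.53 ± 0.34 (adjusted p = 0.0111), lost without PB animal 1 (-1.30, adjusted p = 0.0556). Its PB change of 0.90 ± 0.24 (adjusted p = 0.0454) was not called without PB animal 1 (0.67), PB animal 3 (0.98) or methylcellulose control 1 (0.75). Itga1, a collagen-binding integrin subunit, was at 9.02, 9.06 and 9.14 in CPA livers against 9.51, 9.76 and 9.58 in corn oil livers, and at 9.22, 9.17 and 9.32 in PB livers against 8.53, 9.22 and 7.57 in methylcellulose livers. Only the PB pair overlapped. Its CPA change was -0.54 ± 0.21 and its PB change 0.80 ± 0.21 (adjusted p = 0.038). The PB call ended without PB animal 1 (0.81), 2 (0.83) or 3 (0.76) or methylcellulose control 1 (0.84) or 3 (0.36). Its corn oil controls lay 1.18 above the methylcellulose controls. Its difference of -1.34 ± 0.30 stayed called with any 1 array left out, but not with controls pooled by vehicle (-0.49), with no controls (-0.16), or in the fit to 12 arrays with or without the block.

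**Figure D3:**
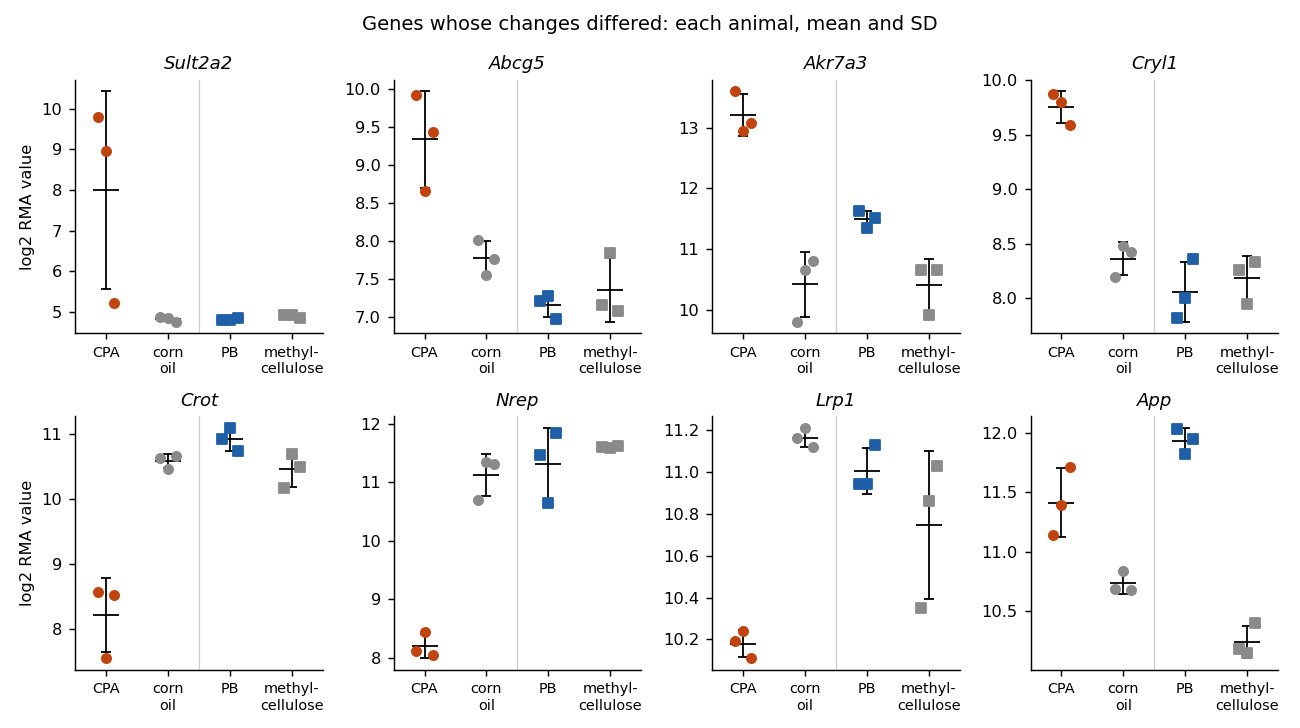
Log2 RMA value of 8 genes whose changes differed, in each of 12 livers in the order CPA, corn oil controls, PB and methylcellulose controls, with the mean and SD of each group of 3. Crot, Nrep and Lrp1 are lowest in the CPA animals, Sult2a2 is high in 2 of the 3 CPA animals, and App is higher in PB than in CPA animals.

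Of the markers of stellate cells and matrix, 13 were called lower in CPA livers and 0 in PB livers. In whole liver, fewer cells of a type and less RNA per cell cannot be told apart. Of 23 measured, 13 were called lower and 0 higher with CPA (median -0.49), where 4.73% of all probe sets were lower, 0 were called in either direction with PB, also at an unadjusted p under 0.05 (median 0.04), and 6 were called lower in the difference, against 1.03% of all (median -0.48, beside 0.02 over all probe sets). The mean level of the list was 7.79 to 7.96 in CPA livers against 8.32 to 8.47 in corn oil livers, and 8.14 to 8.18 in PB livers against 8.11 to 8.22 in methylcellulose livers. The corn oil controls thus lay above every other group, and 2 members, both also called in the difference, were higher in corn oil than in methylcellulose controls. The count of 6 was 3 without methylcellulose control 1.

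Col3a1, the chain of type III collagen, was at 9.47, 9.66 and 9.22 in CPA livers against 10.93, 11.12 and 11.07 in corn oil livers, and at 10.75, 10.54 and 10.84 in PB livers against 10.72, 10.68 and 10.72 in methylcellulose livers. The CPA animals lay below all 9 others. Its difference was -1.59 ± 0.21 (adjusted p = 8.22e-06), made of a CPA change of -1.59 ± 0.15 and a PB change of 0.01 ± 0.15. Bgn, the proteoglycan biglycan, had a difference of -0.92 ± 0.13 (adjusted p = 1.91e-05), and its corn oil controls exceeded its methylcellulose controls by 0.52 (adjusted p = 0.00119). Col4a1, a basement membrane collagen, had a difference of -0.90 ± 0.17 (adjusted p = 0.00216). Col1a2 had -1.22 ± 0.29, lost without CPA animal 3 (-1.10), corn oil control 2 (-1.11) or methylcellulose control 1 (-1.09).

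**Figure D4:**
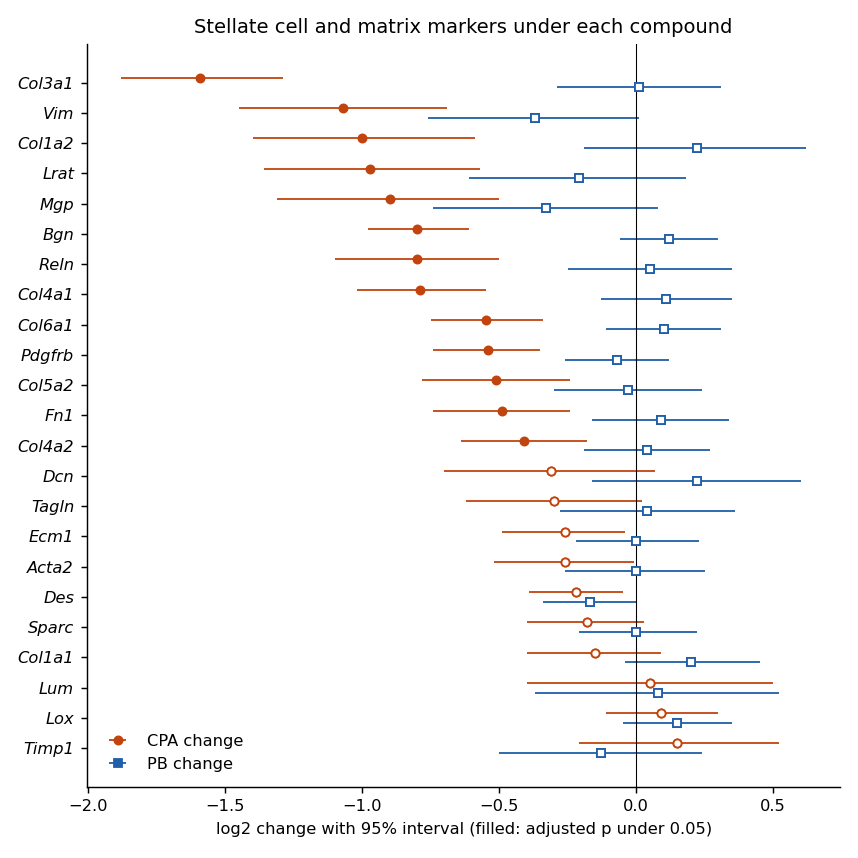
Log2 change of 23 stellate cell and matrix markers under CPA (circles) and PB (squares), with 95% intervals from the limma fit; filled symbols passed the test. The 13 filled symbols are all CPA changes below 0, led by Col3a1 at -1.59, and no PB change is filled.

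Markers of some other non-parenchymal cells moved with CPA as well, and their part in the results above was not tested. Of all probe sets, 4.73% were lower with CPA and 0.384% with PB. Of 13 macrophage markers, 7 were called lower with CPA and 0 with PB in limma's test. At an unadjusted p under 0.05, 8 were lower and 2 higher with CPA, and 5 were lower and 1 higher with PB. Their median change was -0.77 with CPA and -0.42 with PB, and 0 passed in the difference (1 lower unadjusted). Csf1r, the receptor for the macrophage growth factor, fell by 1.03 ± 0.19 with CPA. The macrophage list averaged 8.68 to 9.05 in CPA livers against 9.24 to 9.65 in corn oil livers, and 8.76 to 9.24 in PB livers against 9.02 to 9.73 in methylcellulose livers. The count of 7 was 4 without CPA animal 1, 3 without CPA animal 3, 1 without corn oil control 1, 3 without corn oil control 2, and 1 with controls pooled by vehicle. Of 11 endothelial markers, 6 were lower with CPA and 0 with PB (1 unadjusted), with Kdr at -0.90 ± 0.17. They averaged 7.64 to 7.84 in CPA livers against 8.04 to 8.30 in corn oil livers, and 7.63 to 7.94 in PB livers against 7.82 to 7.99 in methylcellulose livers. Of 5 erythroid markers 3 were lower with CPA and 0 with PB (0 unadjusted), with Alas2 at -1.23 ± 0.29. They averaged 9.18 to 9.47 in CPA livers against 9.67 to 10.21 in corn oil livers, and 9.83 to 10.10 in PB livers against 9.93 to 10.04 in methylcellulose livers. The erythroid count was 1 without corn oil control 2. Of 13 biliary markers 2 were higher and 2 lower with CPA, where 3.11% of all probe sets were higher, and 1 was higher and 1 lower with PB. Of 18 lymphocyte markers 1 was lower with CPA and 0 with PB, and of 6 neutrophil markers 0 were called with either. Of 14 hepatocyte markers 4 were lower with CPA, by at most 0.55.

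Some genes of amino acid catabolism, acute phase proteins, ER stress and fatty acid oxidation were called lower with CPA, as were 4.73% of all probe sets. Of 39 genes of amino acid catabolism and the urea cycle, 12 were lower and 1 higher with CPA (median -0.25), against 1 lower and 1 higher with PB (median -0.11). At an unadjusted p under 0.05, 10 were lower and 2 higher with PB, beside 19 lower and 1 higher with CPA. Agxt, which removes glyoxylate, fell by 1.16 ± 0.15 with CPA, its PB change was -0.37 ± 0.15, and its difference of -0.79 ± 0.21 (adjusted p = 0.0377) was the 1 called in this list. That difference lost the call without CPA animal 1 (-0.67), corn oil control 1 (-0.77) or 2 (-0.76), PB animal 1 (-0.79), 2 (-0.73) or 3 (-0.85), or methylcellulose control 2 (-0.70), and with controls pooled by vehicle (-0.56). Cps1, the first enzyme of the urea cycle, fell by 0.55 ± 0.12 with CPA. Of 24 acute phase proteins 8 were lower with CPA and 0 with PB (0 unadjusted), and Itih3 alone was lower in the difference (-0.36 ± 0.07, adjusted p = 0.00381), which was not called with controls pooled by vehicle (-0.22). Of 24 genes of ER stress 8 were lower with CPA and 0 with PB (2 unadjusted), among them Hspa5, the ER chaperone BiP, by 0.56 ± 0.13. Of 40 genes of fatty acid oxidation 7 were lower and 1 higher with CPA, against 1 and 1 with PB. Unadjusted, 4 of the 40 were lower and 2 higher with PB, beside 11 lower and 3 higher with CPA. Cyp4a1, an omega-hydroxylase under PPARalpha, fell by 1.34 ± 0.19 with CPA, whereas Cyp4a8 rose by 0.94 ± 0.14 with CPA and 0.73 ± 0.14 with PB. Without CPA animal 1 the CPA counts were 7 for amino acid catabolism, 3 for acute phase proteins, 5 for ER stress and 4 for fatty acid oxidation. Without corn oil control 1 they were 4, 3 and 4 for the last 3 lists, ER stress was also 5 without CPA animal 3 or corn oil control 3, and fatty acid oxidation 4 without CPA animal 2.

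**Figure D5:**
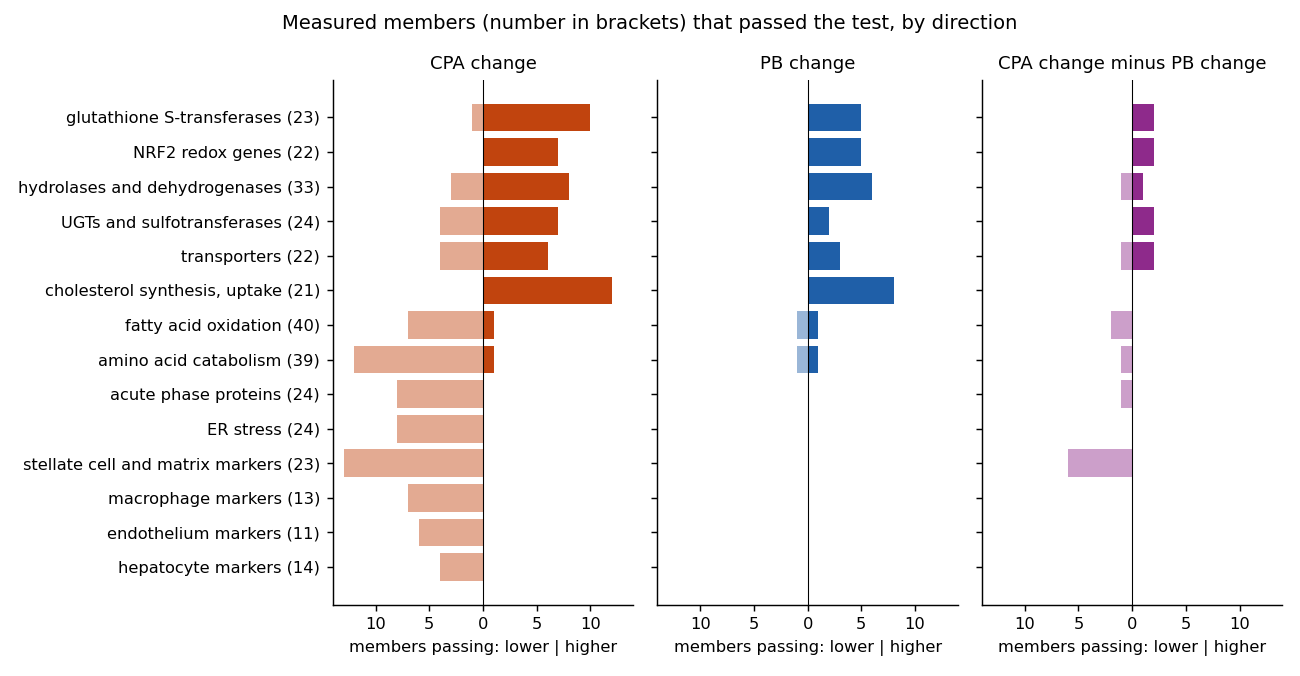
Number of measured members of 14 lists that passed the test higher (right, dark) and lower (left, pale) in the CPA change, the PB change and the difference of changes. Cholesterol genes reach 12 and 8 higher with no called difference, and the stellate cell and matrix markers reach 13 lower with CPA and 6 lower in the difference.

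Lists of sex-dependent liver genes held calls in both directions with CPA, where 3.11% of all probe sets were higher and 4.73% lower. Of 18 female-predominant genes 3 were higher and 2 lower with CPA and 1 was lower with PB. That gene was Cyp2c12, a female-specific steroid hydroxylase, with a PB change of -1.68 ± 0.42 (adjusted p = 0.0288) and values of 7.83, 7.41 and 8.40 in PB livers against 9.84, 9.33 and 9.51 in methylcellulose livers. The call of Cyp2c12 ended without PB animal 1 (-1.65) or 2 (-1.44) or methylcellulose control 1 (-1.54), and with controls pooled by vehicle (-1.10). The corn oil controls of Cyp2c12, at 7.59, 8.09 and 8.63, overlapped the PB livers and lay below the methylcellulose controls (corn oil minus methylcellulose -1.46, adjusted p = 0.0529). Of 18 male-predominant genes 4 were lower and 1 higher with CPA, against 0 with PB (3 lower unadjusted), and Gulo and Car3 were lower and Slco1a1 higher in the difference. The call of Car3 was lost when any 1 of 9 arrays was left out, all but CPA animal 3, corn oil control 2 and methylcellulose control 2, with differences of -0.85 to -0.56. The 4 were 2 without CPA animal 1 or corn oil control 1. Of 41 cell cycle genes 3 were lower with CPA and 0 with PB (0 unadjusted). Myc had changes of 0.48 ± 0.36 and -0.20 ± 0.36, Ccnd1 of -0.61 ± 0.26 and -0.50 ± 0.26, and Gadd45b, a stress gene known as a CAR target in mouse, rose by 0.32 ± 0.08 with CPA, a call lost without CPA animal 1 (0.30), and had a PB change of 0.08 ± 0.08.

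The 13 other compounds were dosed for 3 to 14 days, several shared a control set, and their values stand beside those of CPA and PB without a test of any difference. Controls labelled 14 days served piperonyl butoxide, diethylstilbestrol and Wy-14643 at 3 days, and thioacetamide and methapyrilene at 7 days. The changes of these compounds are therefore not matched in time by the labels. Piperonyl butoxide, given for 3 days, had a change of 3.56 at Ces2c, 4.53 at Aldh1a1, 4.99 at Gsta3 and 3.49 at Abcc3. At these genes 9, 10, 8 and 5 of the 13 were called higher, in that order, and 0 lower. At Ephx1 10 of the 13 were called higher, and at Akr7a3 7. At Sult2a2 0 of the 13 were called, and diethylstilbestrol at 3 days had the highest of their changes, 0.92 (adjusted p = 0.176). At Abcg5 ethionine at 14 days was the 1 called, at 2.00. At Crot 5 of the 13 were called higher and 0 lower, with dehydroepiandrosterone at 14 days at 2.40 beside the -2.37 of CPA. At Nrep 4 of the 13 were called lower, among them C.I. Direct Black at 7 days with -2.75 beside the -2.92 of CPA.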

How the data were processed

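Liver RNA of 63 rats was measured on Affymetrix RAE230A arrays, 1 array per animal, and 12 of these arrays enter the comparison. The authors deposited log2 values made by RMA, which corrects background, quantile-normalizes and summarises each probe set, so no scanner intensities were reprocessed and the values were used as deposited. Groups came from the compound and control set in the labels. All 63 columns matched a sample and 0 did not. Group means were estimated in 1 linear model over the 63 arrays (R 4.3.3, limma 3.58.1), with empirical Bayes moderation and Benjamini-Hochberg adjustment over 15866 probe sets. The contrasts were CPA minus its controls, PB minus its controls, the difference of these, and the corn oil minus the methylcellulose controls. Tables and figures were made with Python 3.11.15, numpy 2.4.6, pandas 2.3.3 and matplotlib 3.10.9. RMA compresses changes of dim probe sets, so folds near the floor are understated. The number of arrays limits the precision. Whether the fit recovers known changes was tested on simulated data.

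A gene was represented by the probe set with its symbol alone and the highest mean over all arrays. Named genes were the 12 highest and 12 lowest called in the difference, the 6 highest and 6 lowest called in each change where treated animals and controls did not overlap, the 6 with the largest smaller change among those called in both, all called in opposite directions, up to 4 called members of each of 37 lists, all measured members of P450 families 2B and 3A, and 10 fixed genes (138 genes in all). The members and lists were chosen with earlier results of these data known. Promoters are RefSeq's on GRCr8, and 110 of the 138 genes had one. The alternatives were a fit to the 12 arrays, array weights, controls pooled by vehicle, a filter at the 25th percentile of mean level, a trended robust prior, median centring, a replicate block, no controls, the mean of a gene's probe sets, and each of the 12 arrays left out. The pooled corn oil controls came from control sets whose labels give different dosing times. MicroRNA and protein data were not analysed here.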

Additional observations from a re-analysis of the deposited data

Results flagged for a closer look

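At 5 probe sets the CPA and PB changes were called in opposite directions, and the test of the difference passed at each (limma, Benjamini-Hochberg). Tjp1, the tight junction scaffold ZO-1, was at 9.33, 9.58 and 9.71 in CPA livers against 10.12, 9.90 and 9.96 in corn oil livers, and at 9.88, 9.83 and 10.11 in PB livers against 9.06, 9.33 and 9.62 in methylcellulose livers. Neither pair of groups overlapped. Its difference was -1.06 (CPA change -0.45, PB change 0.60). Myo1d, an unconventional myosin, had a difference of -1.16 (CPA change -0.62, PB change 0.55). Macf1, which links microtubules and actin, had -0.57 (-0.28 and 0.30), Unc119b had -0.53 (-0.24 and 0.30), and a probe set with no single gene symbol had -1.10 (-0.48 and 0.62).

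The corn oil controls were above the methylcellulose controls at Tjp1 by 0.66, at Macf1 by 0.39 and at the unnamed probe set by 0.54, all called. Without methylcellulose control 1 the PB changes of all 5 lost their calls, at 0.46 for Tjp1, 0.39 for Myo1d, 0.18 for Macf1, 0.29 for Unc119b and 0.48 for the unnamed probe set. With controls pooled by vehicle the difference still passed at Myo1d (-0.82) and the unnamed probe set (-0.72), and did not at Tjp1 (-0.51), Macf1 (-0.27) or Unc119b (-0.31).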

How the results depend on the processing

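Counts of called probe sets moved with the processing, and so did the calls of single genes. In the fit to the 12 arrays alone, 56 were called in the difference, 773 with CPA, 83 with PB and 51 in both. Array weights gave 2083 with CPA and 139 with PB. Controls pooled by vehicle gave 603 with PB, 352 higher and 251 lower, and 167 in both. Of the 214 PB calls of the main fit 128 were among the 603, and of its 82 shared calls 57 were among the 167. CPA set directly against PB without controls gave 768. Leaving out 1 array gave 93 to 354 in the difference, 599 to 1359 with CPA, 88 to 540 with PB and 50 to 116 in both. The lowest came without PB animal 3 (93), CPA animal 1 (599), PB animal 1 (88) and methylcellulose control 1 (50), and the highest without methylcellulose control 2 (354, 540 and 116) or 1 (1359). The causes were not tested. With the replicate number as a block on the 12 arrays, 21 were called in the difference, 551 with CPA, 72 with PB and 47 in both. Same-numbered animals and controls correlated at -0.153 to 0.165 for CPA and -0.153 to -0.048 for PB, so the numbers do not pair the animals. Of the 43 named genes called in the difference, 29 lost the call in the fit to 12 arrays (Sult2a2, Abcg5, Inf2 and Itga1 among them), 34 with the block (Gsr, App, Elovl5, Gulo and Col4a1 among them), 13 with controls pooled by vehicle and 8 with no controls. Crot, Nrep, Col3a1, Lrp1, Cryl1 and Bgn kept it under every alternative. No called value of a named gene changed sign, whereas 66 of 215 values that were not called did when 1 array was left out. RMA values carry no depth, and 3 animals per group limit what small differences can be detected.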
